A study of Mus musculus with 8 samples.

Results

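The PI3K and mTOR pathway genes Pik3r2, Mtor, Rptor and Eif4ebp1 were followed across m6A-eCLIP libraries of αTC1-6 cells, a glucagon-producing line derived from mouse pancreatic alpha cells. The members are the counted sites inside the mm10 RefSeq spans of these 4 genes, 22 of the 33774 sites in the table: 3 in Pik3r2, 9 in Mtor, 5 in Rptor and 5 in Eif4ebp1. In m6A-eCLIP an antibody against N6-methyladenosine, a methyl mark on adenosine in RNA, is fixed to the RNA it binds by ultraviolet light, and the reads piling up at the fixed positions are counted. Cells received either an siRNA of scramble sequence (SCR) or one targeting Mettl14 (M14KD), a subunit of the enzyme that writes the mark, and from each came libraries of the antibody-bound RNA (IP) and of the RNA before selection (Input), 2 libraries in each of 4 groups. SCR held replicates 1 and 2 and M14KD replicates 3 and 4, and an IP and an Input library share each number. Mettl14 reads remained in the M14KD libraries, so the cells are no model of its absence. All groups are the 1 cell line, and no label gives the siRNA sequences or the time after transfection. Whether the replicates were separate cultures is not given either, so the p-values reflect the spread among libraries, which may be technical.

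The 4 genes were chosen by their measured IP levels: their summed IP reads were lower in M14KD than in SCR. Their IP change is therefore a description here, and where a count of IP calls is given, nothing is read from it. The Input libraries did not enter that choice, although they share replicate numbers with the IP libraries.

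Growth factor receptors and insulin receptor substrates recruit class I phosphoinositide 3-kinase (PI3K), whose lipid product activates the kinase Akt and, through it, the kinase mTOR. Mtor encodes that kinase, the catalytic subunit shared by the complexes mTORC1 and mTORC2. In mTORC1 the Rptor protein, Raptor, holds the substrates, and Eif4ebp1 encodes one of these, a repressor of cap-dependent translation that releases the cap-binding protein when phosphorylated. Pik3r2 encodes p85-beta, a regulatory subunit of class I PI3K. In pancreatic alpha cells the pathway is known for coupling insulin and amino acid supply to growth and glucagon output.

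Most of the sites lay close to 1 end of each gene. In Mtor and Rptor, which the RefSeq promoter table places on the plus strand, 8 of 9 and 5 of 5 sites lay within 1200 bases of the 3′ end of the gene span, as did 2 of 3 in Pik3r2, on the minus strand. Among all named sites with a strand in that table, 32.0% did. The Eif4ebp1 strand was not taken from these tables, and its 5 sites lay 218 to 552 bases from the right-hand end of the span. Many sites were near neighbours: 18 of the 22 had another of the same gene within 100 bases. The sites of a gene may therefore share reads and are not independent. A count summed over the sites of a gene may hold the same read more than once. Exons, introns and untranslated regions were not used here.

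The sequence around the sites was not used here. The bases just before the annotated starts of 3 of the genes are shown as context, although most sites of these genes lie at the far end. They come from RefSeq (GRCm38.p6), 250 bases each in the direction of transcription. Capitals mark matches to the motifs searched, on both strands. One motif was the GC box, spelled GGGCGG. Another was the box spelled CCAAT, bound by the factor NF-Y. The E-box was searched as CACGTG, the letters bound by bHLH factors such as Myc and Tfeb. The cAMP response element was searched as TGACGTCA. The C/EBP-ATF composite element, bound by Atf4, was searched as TGATGNAAN. Overlapping matches were kept. Pik3r2 is at chr8:70776713-70776962, minus strand, Mtor at chr4:148448332-148448581, plus strand, and Rptor at chr11:119602655-119602904, plus strand.
Pik3r2: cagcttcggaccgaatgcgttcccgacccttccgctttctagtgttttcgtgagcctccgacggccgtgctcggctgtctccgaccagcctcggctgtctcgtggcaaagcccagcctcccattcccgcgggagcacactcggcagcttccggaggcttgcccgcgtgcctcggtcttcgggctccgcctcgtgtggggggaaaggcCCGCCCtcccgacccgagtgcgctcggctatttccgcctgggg
Mtor: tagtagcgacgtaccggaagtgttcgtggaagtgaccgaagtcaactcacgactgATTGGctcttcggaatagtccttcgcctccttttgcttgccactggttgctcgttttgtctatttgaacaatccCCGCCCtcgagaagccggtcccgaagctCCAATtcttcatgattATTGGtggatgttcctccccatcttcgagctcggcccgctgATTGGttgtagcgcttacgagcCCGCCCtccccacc
Rptor: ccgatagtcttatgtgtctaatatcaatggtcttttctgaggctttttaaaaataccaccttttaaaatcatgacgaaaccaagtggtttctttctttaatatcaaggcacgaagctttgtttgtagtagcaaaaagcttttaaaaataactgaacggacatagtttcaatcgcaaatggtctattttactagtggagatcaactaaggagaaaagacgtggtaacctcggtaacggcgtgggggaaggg
These 3 windows differ in composition, with 68.4% G and C in Pik3r2, 54.4% in Mtor and 37.6% in Rptor, against a median of 52.4% over 32851 windows of the same length. Mtor held 4 matches to the CCAAT box and 2 to the GC box, and Pik3r2 held 1 to the GC box. The CCAAT box was in 33.9% of all windows and the GC box in 32.7%. None of the 3 windows held the E-box, the cAMP response element or the composite element, which were in 6.02%, 1.55% and 3.44% of all windows. No motif of the 5 was common to all 3 windows, and a match is a run of letters, not a bound site.

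Input libraries held counts of 3438530 to 3637740 summed over all sites, and IP libraries 10207383 to 10918559. Mettl14, at 2 sites, was at 51.2% of its SCR level in the M14KD Input libraries and at 43.4% in IP as a ratio of mean CPM (the usual depth-scaled read count, with the reads at all sites of a library as its total), though its change passed no adjusted threshold (edgeR adjusted p = 0.261 in Input and 0.157 in IP). Of 11 alpha cell markers 8 had a site, Gcg and Ttr among them. The 6 beta, 2 delta, 2 PP and 3 acinar cell markers had no site, and of the duct markers Sox9 had sites with 0 to 5.8 CPM. A gene with no site has no measured level here.

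Pik3r2, the regulatory subunit, had the largest IP difference of the 4. Its summed IP level was 46.2 and 47.7 CPM in the SCR libraries and 27.1 and 33.8 CPM in the M14KD libraries. Both M14KD libraries lay well below both SCR libraries. Its Input level was 52.8 and 61.3 CPM in SCR and 42.9 and 46.8 CPM in M14KD, again without overlap but with a smaller gap. The log2 fold change of M14KD over SCR was -0.60 (SE 0.12) in IP and -0.35 (SE 0.14, edgeR adjusted p = 0.421) in Input. With 1 replicate left out the Input value ran from -0.46 to -0.22, the latter without replicate 2. In bulk libraries, fewer cells that express a gene and less RNA per cell cannot be told apart.

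The Pik3r2 difference was largest at 2 neighbouring sites near the 3′ end, at positions 70768297 and 70768317 of chromosome 8. They lie 20 bases apart and may share reads. At 70768297 the SCR libraries held 203 and 217 IP reads and the M14KD libraries 117 and 132. At 70768317 SCR had 212 and 210 and M14KD had 114 and 134. The third site, at 70775075 and 6899 bases from the 3′ end, had 89 and 77 in SCR and 55 and 79 in M14KD, so that its groups overlapped. IP log2 fold changes were -0.68 (SE 0.14) and -0.69 (SE 0.14) at the pair and -0.23 (SE 0.21) at the distant site. The pair were the 2 member sites that passed the edgeR threshold in IP (adjusted p under 0.05), of 22, where 0.375% of all tested sites were called lower. That contrast chose the genes, so nothing is read from this count, which was 0 without replicate 3 (log2 fold changes of -0.57 and -0.56) and 8 without replicate 1. In Input the pair had counts of 85 and 92 against 59 and 61 at 70768297 and of 78 and 80 against 64 and 60 at 70768317, SCR before M14KD. Each was lower in both M14KD libraries, with Input log2 fold changes of -0.50 (SE 0.18, edgeR adjusted p = 0.419) and -0.29 (SE 0.18, edgeR adjusted p = 0.694).

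**Figure D1:**
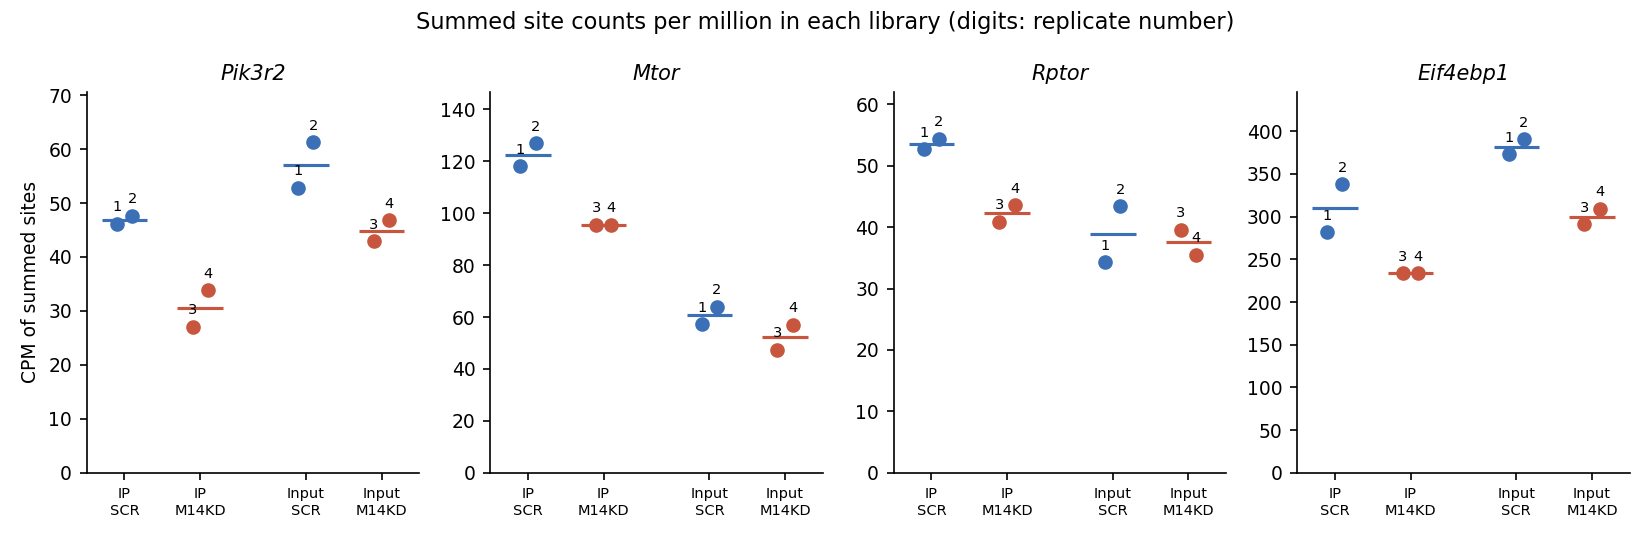
Summed site counts as CPM (vertical axis, from 0) of each gene in the 8 libraries, with IP on the left and Input on the right of each panel, SCR in blue and M14KD in red. Points are libraries, digits are replicate numbers and bars are means; both M14KD libraries lie below both SCR libraries in all 4 IP panels and in the Input panels of Pik3r2, Mtor and Eif4ebp1, while those of Rptor overlap.

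Mtor, the kinase, had IP levels of 118 and 127 CPM in SCR and 95.6 and 95.6 CPM in M14KD. The M14KD libraries were nearly equal and both below SCR. Input levels were 57.2 and 64.1 CPM in SCR and 47.3 and 57.0 CPM in M14KD, where replicate 4 of M14KD lay just below replicate 1 of SCR. The log2 fold change was -0.34 (SE 0.08) in IP and -0.22 (SE 0.14, edgeR adjusted p = 0.62) in Input, the latter not past the threshold. The Input value rested on single libraries: it was -0.08 without replicate 3, -0.12 without replicate 2 and -0.35 without replicate 4.

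The Mtor sites formed a cluster of 8 within 760 bases of the 3′ end and a lone site 42851 bases from it. The site at 148556977 of chromosome 4 held the most IP reads of the gene, with 285 and 316 in SCR against 207 and 218 in M14KD. That is 20.5% to 23.5% of the IP counts of the gene in each library. Its Input reads numbered 28 and 28 in SCR against 20 and 17 in M14KD. In the cluster, IP log2 fold changes ran from -0.43 at 148556977 and at 148557168 to -0.11 at 148557513, and both M14KD libraries lay below both SCR libraries at all 8. The lone site at 148514834 went the other way, with 16 and 19 IP reads in SCR against 19 and 22 in M14KD and a log2 fold change of 0.30 (SE 0.33). Its IP counts were too few to tell a rise from the spread between libraries.

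Rptor, the substrate-binding partner of the kinase, had IP levels of 52.7 and 54.4 CPM in SCR and 40.9 and 43.6 CPM in M14KD. The groups were separate. Its Input levels overlapped, with 34.3 and 43.4 CPM in SCR and 39.6 and 35.5 CPM in M14KD. The log2 fold change was -0.32 (SE 0.10) in IP and -0.05 in Input (SE 0.16, 95% interval -0.40 to 0.30, edgeR adjusted p = 0.945). The Input interval rests on summed Input counts of 122 to 158 per library and includes the size of the IP difference. An Input difference of that size is therefore not excluded. The sign of the Input value turned without replicate 2 (0.14, SE 0.19) and without replicate 4 (0.04, SE 0.21).

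All 5 Rptor sites were lower in both M14KD IP libraries. The site nearest the 3′ end, at 119899364 of chromosome 11, held 40.4% to 47.9% of the gene's IP counts, 252 and 232 in SCR and 201 and 213 in M14KD. It had the smallest IP difference of the gene, -0.15 (SE 0.12). The largest was at 119898744, with 100 and 105 in SCR, 71 and 61 in M14KD and a log2 fold change of -0.56 (SE 0.18). The Input log2 fold changes of the 5 sites lay between -0.08 and 0.03, with standard errors of 0.27 to 0.31.

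Eif4ebp1, the translation repressor, was the most deeply read of the 4 and was lower in M14KD in both kinds of library. IP levels were 282 and 338 CPM in SCR and 234 and 234 CPM in M14KD. Input levels were 373 and 390.4 CPM in SCR and 291 and 309 CPM in M14KD. Neither kind of library overlapped between the groups. The log2 fold change was -0.38 (SE 0.09) in IP and -0.35 (SE 0.09, edgeR adjusted p = 0.189) in Input, the lowest Input adjusted p of the 4 but not past the threshold. With 1 replicate left out the IP value ran from -0.51 (without replicate 1) to -0.25 (without replicate 2) and the Input value from -0.38 to -0.30. The M14KD Input libraries held 78.6% of the SCR level.

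All 5 Eif4ebp1 sites behaved alike. The most read, at 27275292 of chromosome 8, had IP counts of 1033 and 1221 in SCR and 872 and 826 in M14KD, and Input counts of 359 and 361 in SCR and 265 and 267 in M14KD. Both M14KD libraries were lower in each kind. IP log2 fold changes of the 5 sites ran from -0.47 to -0.34 and Input log2 fold changes from -0.40 to -0.18. At all 5 sites both M14KD libraries lay below both SCR libraries in Input too.

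**Figure D2:**
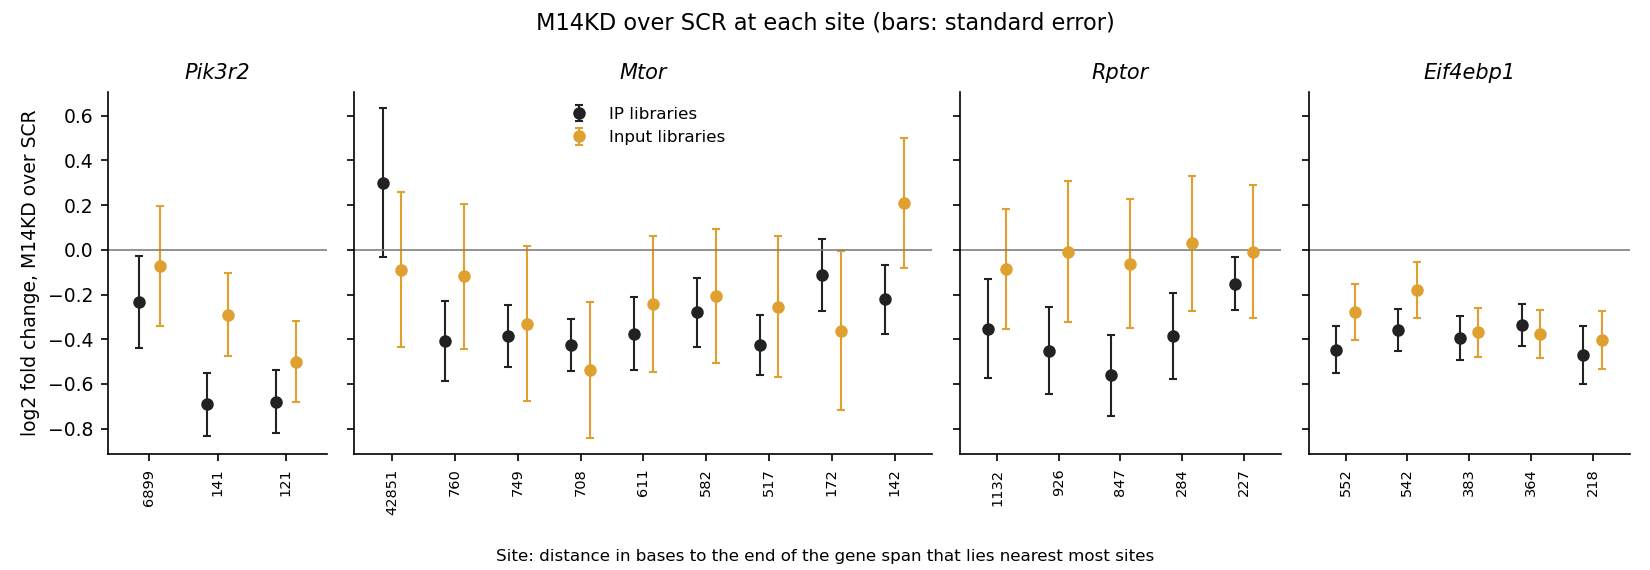
Log2 fold change of M14KD over SCR (vertical axis) at each of the 22 sites, in IP (black) and Input (orange), with standard errors; the horizontal axis gives the distance of a site in bases from the end of the gene span that most sites are near. IP points of Rptor lie below Input points that are near 0, whereas in Eif4ebp1 IP and Input points lie together between -0.47 and -0.18.

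In Input, which did not choose the genes, edgeR's quasi-likelihood test called none of the 4 genes and none of their 22 sites. Over the whole table it called 0% of genes and 0.0929% of sites. At an unadjusted p under 0.05, Pik3r2 and Eif4ebp1 were lower, 2 of 4 genes, where 5.36% of all genes tested were. Among sites this held for 5 of 22, 4 of them in Eif4ebp1 and 1 in Pik3r2, against 4.14% of all sites. In both M14KD libraries Input was below both SCR libraries for 3 of 4 genes and 8 of 22 sites, against 21.1% of genes and 20.2% of sites. The 8 sites were the 5 of Eif4ebp1, 2 of Pik3r2 and 1 of Mtor, and neighbours among them may share reads. IP and Input libraries of 1 number deviated from their group means together, so Input is not fully separate from the choice by IP. These Input counts are therefore given as a description. In IP, which chose the genes, the same separation was seen for 4 of 4 genes and 20 of 22 sites, beside 26.3% and 25.2% of all. DESeq2 gave no adjusted p in Input for Pik3r2, Mtor and Rptor, and adjusted p = 0.0809 for Eif4ebp1.

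The next question was how strongly the antibody selected each gene. IP over Input was tested within each genotype in 1 model of all 8 libraries, with TMM scaling, in which the typical gene lies near 0 and a value above 0 means more IP than Input reads relative to it. In SCR the log2 ratio was 0.32 (SE 0.11, edgeR adjusted p = 0.0175) for Mtor, -0.23 (SE 0.13, edgeR adjusted p = 0.134) for Rptor, -0.97 (SE 0.13, edgeR adjusted p = 7.9e-06) for Pik3r2 and -0.99 (SE 0.09, edgeR adjusted p = 9.36e-08) for Eif4ebp1. In M14KD the order of the 4 had Mtor first again, with 0.19 (SE 0.12, edgeR adjusted p = 0.15), then Rptor, with -0.51 (SE 0.14, edgeR adjusted p = 0.00344), Eif4ebp1, with -1.04 (SE 0.09, edgeR adjusted p = 6.48e-08), and Pik3r2, with -1.24 (SE 0.14, edgeR adjusted p = 1.23e-06). Pik3r2 and Eif4ebp1 do not differ beyond their standard errors in SCR. Over all genes 69.9% passed in SCR and 71.0% in M14KD, so that passing is common. Scaling by column totals raised the median of all genes by 0.72 in SCR and 0.71 in M14KD; then Rptor was above 0 in both, as a call in SCR (0.48, edgeR adjusted p = 0.00302) and not in M14KD (0.19, edgeR adjusted p = 0.189). With that scaling Mtor passed in M14KD (0.90, edgeR adjusted p = 3.79e-06) and Pik3r2 no longer passed in SCR (-0.26, edgeR adjusted p = 0.079). The position of Mtor depended on which sites were summed. With 1 site kept per 100 bases, starting from the left, it was at -0.13 in SCR and -0.18 in M14KD. That rule drops 148556936, 148556977 and 148557168, the Mtor sites that passed above 0 in SCR. Rptor then lost 119898744 and 119899364, the latter its most read site in IP. It moved down, to -0.54 in SCR (edgeR adjusted p = 0.0033, a call gained) and -0.91 in M14KD (edgeR adjusted p = 3.74e-05). The SCR value of Rptor was -0.05 without replicate 2 and -0.38 without replicate 1, and the M14KD value of Mtor was 0.08 without replicate 3 and 0.30 without replicate 4. The SCR call of Mtor was also lost without replicate 1 (0.28, edgeR adjusted p = 0.128) and without replicate 2 (0.37, edgeR adjusted p = 0.0547), and the M14KD call of Rptor without replicate 3 (-0.37, edgeR adjusted p = 0.145).

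Single sites of a gene differed widely in IP over Input. In Mtor the log2 ratio in SCR ran from -2.50 (SE 0.36) at the lone site 148514834 to 1.14 (SE 0.19) at 148556977. The sites at 148556936 (0.83, SE 0.23) and 148557168 (0.61, SE 0.22) were also above 0 and passed. The other 5 Mtor sites lay between -0.04 and 0.13 and did not pass. In Rptor the site with most IP reads, 119899364, was the 1 site above 0 (0.59, SE 0.22), and 119898459 was the lowest (-1.44, SE 0.25). All 3 Pik3r2 sites (-1.21 to -0.86) and all 5 Eif4ebp1 sites (-1.83 to -0.63) lay below 0 in SCR. With edgeR, 15 of the 22 sites passed in SCR and 15 in M14KD, where 67.4% and 66.9% of all sites did. Some of these calls rested on 1 library: the SCR call was lost at 148556936 without replicate 1 (0.71), at 148557168 without replicate 2 (0.46), at 119899364 without replicate 1 (0.27) and at 70775075 without replicate 2 (-0.62). In M14KD the site 148556977 of Mtor was again the highest, at 1.24 (SE 0.22).

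**Figure D3:**
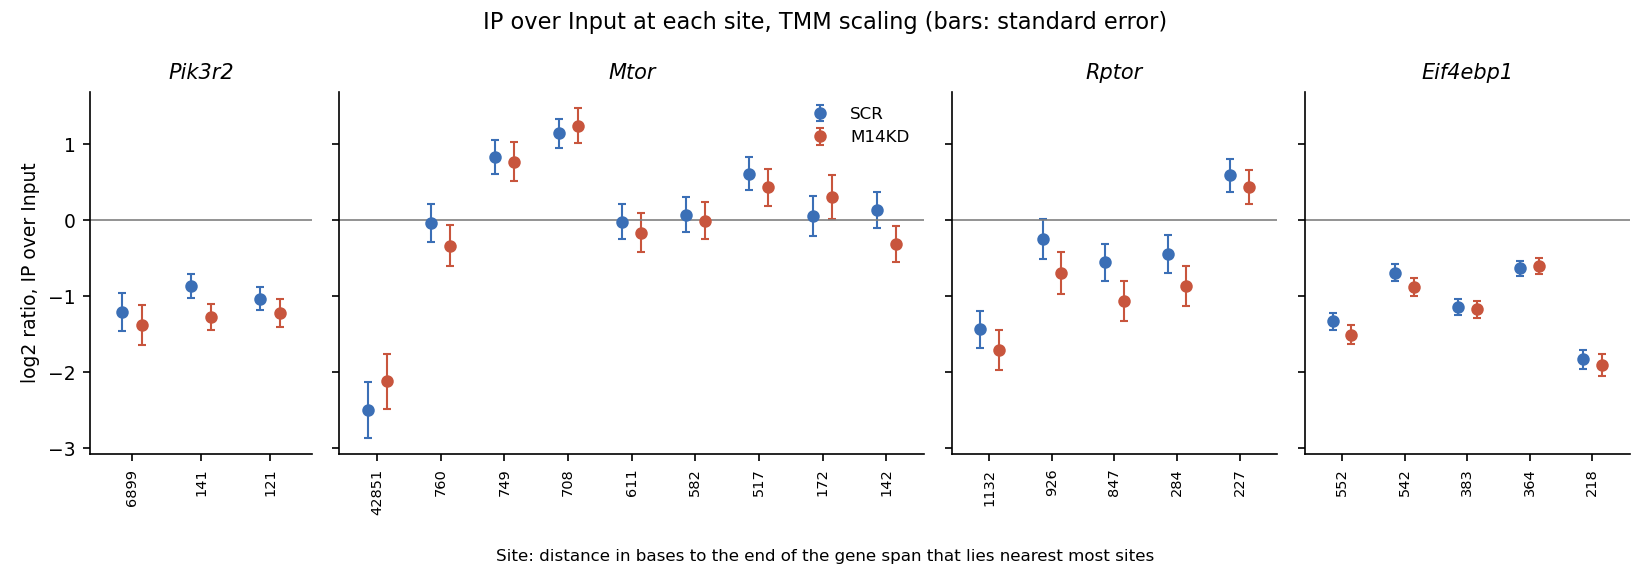
Log2 ratio of IP over Input (vertical axis, TMM scaling) at each of the 22 sites in SCR (blue) and M14KD (red), with standard errors; the horizontal axis gives the distance in bases as in the plot of changes by site. Mtor spans -2.50 to 1.14 in SCR, and all Pik3r2 and Eif4ebp1 sites lie below 0.

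The IP change was then set against the Input change of the same replicates, since fewer IP reads can come with less RNA. This holds the IP contrast that chose the genes and is given as a description. The IP over Input ratio of Pik3r2, as CPM in IP over CPM in Input, was 0.874 and 0.778 in SCR replicates 1 and 2 and 0.632 and 0.722 in M14KD replicates 3 and 4. Both M14KD values were lower. That of Rptor was 1.54 and 1.25 in SCR and 1.03 and 1.23 in M14KD, where replicate 4 of M14KD lay just under replicate 2 of SCR. The ratio of Mtor was 2.06 and 1.98 in SCR and 2.02 and 1.68 in M14KD, and that of Eif4ebp1 0.755 and 0.866 in SCR and 0.803 and 0.757 in M14KD. Both overlapped.

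**Figure D4:**
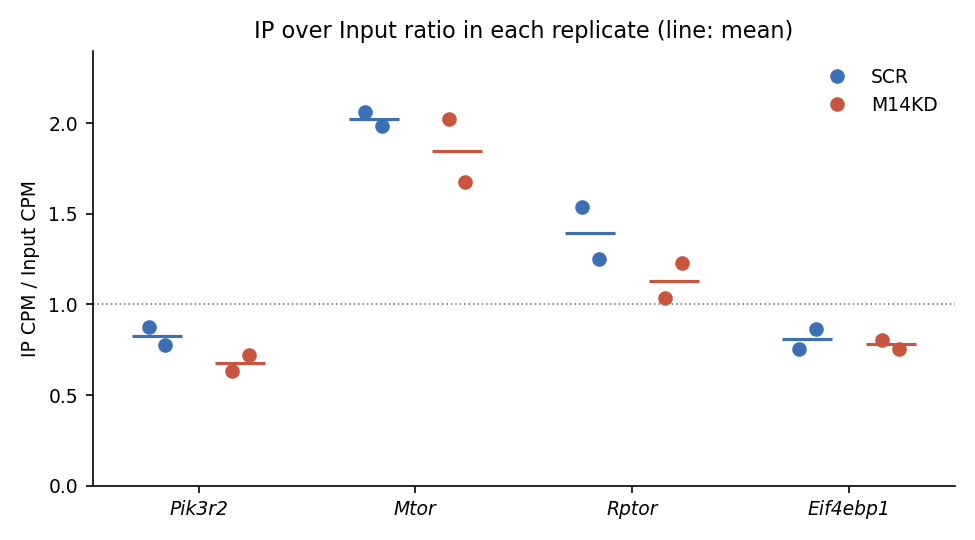
Ratio of IP CPM to Input CPM (vertical axis, from 0) of the summed sites of each gene in every replicate, SCR in blue and M14KD in red, with the mean as a bar and a ratio of 1 dotted. The ratios of Mtor are the highest, from 1.68 to 2.06. The M14KD points of Pik3r2 and Rptor lie below their SCR points, which is given as a description, as the share of all genes was not computed.

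The change of the log2 ratio between M14KD and SCR was -0.28 (SE 0.19, 95% interval -0.69 to 0.12) for Rptor and -0.27 (SE 0.19, 95% interval -0.68 to 0.14) for Pik3r2. It was -0.13 (SE 0.16, 95% interval -0.47 to 0.21) for Mtor and -0.05 (SE 0.13, 95% interval -0.32 to 0.22) for Eif4ebp1. All 4 intervals come from the model without the replicate block. They include 0 and overlap each other, and differences between the genes were not tested. With 1 replicate left out the value ran from -0.46 (without replicate 2) to -0.13 (without replicate 1) for Rptor and from -0.39 (without replicate 4) to -0.17 (without replicate 1 or 3) for Pik3r2. It ran from -0.25 (without replicate 3) to -0.01 (without replicate 4) for Mtor and from -0.13 (without replicate 1) to 0.04 (without replicate 2) for Eif4ebp1. Across the whole table edgeR called 0% of genes for this change, with 167 genes at an unadjusted p under 0.05, of 6384 tested. With the replicate block edgeR again called 0 genes, with 424 at an unadjusted p under 0.05, so leaving the pairing out gave fewer low p-values. Intervals with the block are not given here. DESeq2 gave no member an adjusted p under 0.05. At the sites, the values of Rptor were all below 0 (-0.51 to -0.15), as were those of Pik3r2 (-0.41 to -0.17), while those of Mtor (-0.44 to 0.38) and Eif4ebp1 (-0.19 to 0.03) lay on both sides. None of the 22 sites had an edgeR unadjusted p under 0.05 for this change, where 1242 of 33356 sites tested did. The median over all sites was -0.002, and neighbouring sites may share reads.

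The rest of the pathway gave a mixed picture. Of 139 genes on 9 pathway lists, 84 had a site, and none passed the edgeR threshold in IP or Input. Without the 4 members, 44 of 80 genes had an IP log2 fold change below 0 (median -0.03, against 0.01 over all genes) and 45 of 77 an Input change below 0 (median -0.02, against -0.00 over all genes). Over all genes tested, 3038 of 6381 were below 0 in IP and 2946 of 5826 in Input. At an unadjusted p under 0.05 in Input, 5 of these 77 were lower and 1 higher, beside 5.36% lower and 4.82% higher of all genes. Several genes outside the 4 had IP values as low, among them Castor2, a paralogue of the arginine sensor Castor1, at -0.42 (SE 0.13), Pik3r4, the regulatory subunit of the class III kinase, at -0.40 (SE 0.16, with 0.62 and SE 0.42 in Input), and Sesn2, a stress-induced inhibitor of mTORC1, at -0.40 (SE 0.08). Lamtor4, a subunit of the Ragulator complex, had an IP value as far above 0 (0.46, SE 0.12, with 0.14 and SE 0.14 in Input). Among the 4, Rptor had the smallest IP difference, and Mlst8, a shared mTOR complex subunit that is not a member, was close outside at -0.27 (SE 0.10).

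Among partners of the PI3K subunit, Pik3r1, the p85-alpha subunit, had an IP log2 fold change of 0.39 (SE 0.31) from 1 site and Pik3ca, a catalytic subunit, 0.20 (SE 0.14). Both values were above 0, unlike that of Pik3r2, and neither passed. Pik3r1 was too lightly read for an Input test. Pik3cb had no site. Akt1 (-0.03, SE 0.09) and Akt2 (-0.04, SE 0.12) were near 0 in IP. Irs2, the insulin receptor substrate, had -0.16 (SE 0.06) in IP and -0.20 (SE 0.07, edgeR adjusted p = 0.352) in Input over 68 sites.

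Among partners of Mtor and Rptor, Rictor, which defines mTORC2, had 0.26 (SE 0.17) in IP and -0.41 (SE 0.44) in Input, and Akt1s1, an inhibitory mTORC1 subunit, -0.05 (SE 0.12) in IP and 0.05 (SE 0.17) in Input. Mlst8 had -0.10 (SE 0.16) in Input. Tsc1, a subunit of the complex that restrains mTORC1, had -0.02 (SE 0.08) in IP and -0.37 (SE 0.16, edgeR adjusted p = 0.465) in Input. Tsc2, Rheb and Deptor had no site.

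Of the mTORC1 targets and translation factors, 12 of 16 genes with a site were below 0 in IP, with a median of -0.15, Eif4ebp1 included. In Input 11 of 16 were, with a median of -0.05, where 2946 of all 5826 genes were below 0. The other lists lay on both sides of 0 in IP, where 3038 of all 6381 genes were below 0. Below 0 were 7 of 9 receptors and adaptors (median -0.10), 6 of 10 genes of Akt and its targets (median -0.04), 9 of 22 amino acid sensing genes (median 0.01) and 3 of 6 genes of the TSC list (median 0.01). So were 4 of 8 phosphatases (median 0.00), 1 of 4 class I PI3K subunits (median 0.19), which is Pik3r2, and the 1 class II or III gene with a site. Of the 8 mTOR complex subunits and assembly factors 5 were below 0 (median -0.04), Mtor and Rptor included, which were chosen for it. Eif4ebp2, the paralogue of Eif4ebp1, had -0.21 (SE 0.09) in IP and -0.36 (SE 0.10, edgeR adjusted p = 0.252) in Input. The latter was close to the value of Eif4ebp1. Eif4e, the cap-binding protein that both repress, had 0.25 (SE 0.09) in IP and 0.17 (SE 0.10) in Input. Rps6kb1, the S6 kinase, had 0.65 (SE 0.22, edgeR adjusted p = 0.324) in Input and 0.40 (SE 0.18) in IP. The other genes named by the rule for unadjusted Input p were Sesn2 (-0.39, SE 0.10, edgeR adjusted p = 0.189) and Grb10, an adaptor that dampens insulin receptor signalling (-0.28, SE 0.08, edgeR adjusted p = 0.267). None of these passed.

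**Figure D5:**
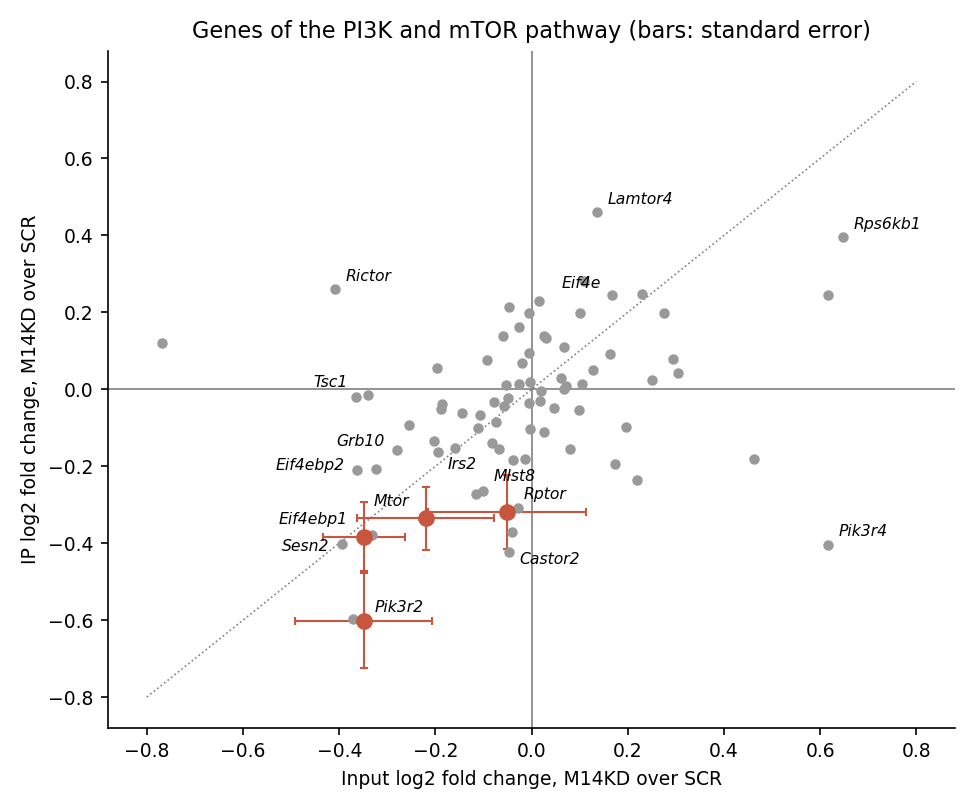
Input (horizontal axis) and IP (vertical axis) log2 fold changes of M14KD over SCR for the pathway genes tested in both, with the 4 members in red and their standard errors, the other genes in grey and equal change dotted. Eif4ebp1 and Sesn2 lie close to the dotted line, Rptor lies below it with an Input value of -0.05, and Rps6kb1 lies at the upper right.

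Across the 8 libraries, after the means of the IP and of the Input libraries were taken off each gene, log2 levels of the 4 genes correlated with each other at r of 0.632 (Rptor and Eif4ebp1) to 0.914 (Mtor and Eif4ebp1). These points include the IP libraries that chose the genes, so this is a description. The genes most like Pik3r2 among 3182 compared were Tmem132a (r = 0.991), Zfp651 (r = 0.987) and Fads1 (r = 0.984). Those most like Mtor were Wbp11 (r = 0.996), Hbs1l (r = 0.991) and Ddx56 (r = 0.982), and those most like Rptor were Atp6v1b2 (r = 0.993), Slc25a11 (r = 0.98) and Icmt (r = 0.973). Those most like Eif4ebp1 were Asns (r = 0.985), Kcnh2 (r = 0.985) and Slc7a5 (r = 0.982). High values are not rare over 8 libraries: 2.5% of genes reached an r of 0.905 with Pik3r2, 0.919 with Mtor, 0.811 with Rptor and 0.925 with Eif4ebp1.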

How the data were processed

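The tools include STAR, cutadapt and UMI-tools, and the build is mm10, per the submitters' processing notes. How sites were called and counted, and with which versions, is not given in the sources used here. The deposited values are whole-number read counts per site, 1 column per library, not normalized by the authors. Sites were named by RefSeq gene spans of GRCm38.p6; a site inside more than 1 protein-coding span stayed unnamed, which touched no member. In all, 31928 sites lay in 6531 genes.

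Counts, per site and summed per gene, were tested with edgeR 4.0.16 (filterByExpr, TMM, quasi-likelihood F-test; R 4.3.3) over all features, calling adjusted p under 0.05 (Benjamini-Hochberg). M14KD and SCR were compared within the 4 IP and within the 4 Input libraries. IP over Input and its change came from 1 model of all 8 libraries. CPM use summed site counts. A standard error is |log2 fold change| divided by √F, and intervals are at 95%. Log2 levels for the correlations used TMM and a prior count of 2, over genes with a mean count of at least 100 in IP and in Input. Motifs and windows came from RefSeq promoter windows.

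The members and the pathway lists were chosen with earlier results of these data known. Named were the members, 17 direct partners set by hand (1 is not reported here), pathway genes with an unadjusted Input p under 0.05, and the 3 genes most like each member; Castor2, Pik3r4 and Lamtor4 were named after their values were seen. IP and Input libraries of 1 number deviated from their group means together (r = 0.548 in SCR and 0.361 in M14KD over 3183 genes), and the labels give them the same number, so the number was taken as a pairing of IP with Input and entered as a block in an alternative. Replicate pairs had a chi-square over degrees of freedom of 1.38 to 2.56, so no pair looked like a single library deposited again. The scripts were tested on simulated data. Alternatives were DESeq2 1.42.0, DESeq2 size factors, column totals, other filters, all 8 libraries in 1 model, 1 site per 100 bases, the replicate block and each replicate left out.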

Additional observations from a re-analysis of the deposited data

How the results depend on the processing

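As a description, since IP chose the genes, the number of the 4 genes past the threshold in IP was 0 with edgeR, 2 (Pik3r2 and Eif4ebp1) with DESeq2 and 0 to 2 with a replicate left out. The number of the 22 sites in IP was 2, became 4 with column totals and 4 with all 8 libraries in 1 model, was 0 with DESeq2, which gave 18 of the 22 no adjusted p, and ran from 0 to 8 with a replicate left out (8 without replicate 1, 0 without replicate 3). The Input counts of 0 genes and 0 sites were 0 under each alternative run, but DESeq2 gave no adjusted p to 3 of the 4 genes and 18 of the 22 sites in Input. Those for the change of IP over Input were also 0. With the replicate block, IP over Input passed for 3 genes in SCR and 3 in M14KD, as without it, and for 15 and 16 sites in place of 15 and 15; the block changed no call of a member gene. Directions turned as follows. Scaling by column totals kept the count of genes past the threshold at 3 in each genotype but not the genes, and put Rptor at 0.48 in SCR and 0.19 in M14KD, its site at 119898744 at 0.16 in SCR and that at 119898665 at 0.02 in M14KD, and the Eif4ebp1 sites at 27275114 and 27275292 at 0.03 and 0.08 in SCR and the latter at 0.12 in M14KD. With 1 site per 100 bases, which drops the Mtor sites that passed above 0 in SCR, Mtor was at -0.13 in SCR and -0.18 in M14KD. Leaving out 1 replicate moved the Input change of Rptor between -0.21 and 0.14 and the ratio change of Eif4ebp1 between -0.13 and 0.04. Beyond the shift that column totals give to every gene and the sites that the 100-base rule drops, the cause was not tested. Among sites not past the threshold, 17 of 88 Input values and 16 of 88 values of the ratio change turned sign with a replicate left out, and 0 of 130 and 0 of 131 did under the other alternatives. Input counts of 10 to 51 reads at the Mtor and Rptor sites and the distant Pik3r2 site limit the Input and ratio values there.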
